A study of Homo sapiens with 4 samples.

Results

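The 10 nuclear genes examined here encode proteins that make, methylate, stabilise or degrade the RNA of mitochondria or, in POLG, copy their DNA. They were chosen by symbol, as POLRMT, TFAM, TFB1M, TFB2M, TEFM, POLG, LRPPRC, SLIRP, PNPT1 and SUPV3L1, and all 10 were found among the 56303 genes of the deposited count table. They were measured by RNA sequencing in EJ and T24T, a pair of human bladder cancer cell lines. Each line was given the circular RNA hsa_circ_0008399 (circ) or, as its control, the vector, and 1 library was made of each, so the 4 groups are EJ circ, EJ vector, T24T circ and T24T vector. Cell line registers list EJ as a derivative of T24, and T24T is a T24 variant, so the lines are not unrelated. The labels give neither the time after transfection nor the number of cultures per library.

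As background, human mitochondrial DNA is transcribed from promoters on both strands into long transcripts. POLRMT is the RNA polymerase, TFAM bends and packages the DNA and opens the promoter together with TFB2M, and TEFM keeps the polymerase elongating. The transcripts are cut into rRNAs, tRNAs and mRNAs, of which the mRNAs are held stable by the LRPPRC and SLIRP complex and degraded by the exoribonuclease PNPT1 with the helicase SUPV3L1. TFB1M, the paralog of TFB2M, methylates the small ribosomal RNA, and POLG is the DNA polymerase that copies the mitochondrial genome, using primers that POLRMT makes.

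The libraries held between 14703455 and 18057768 counts. The mitochondrially encoded genes took 4.01% of counts in EJ circ and 3.08% in T24T circ, against 5.40% in EJ vector and 5.05% in T24T vector. Of 13 epithelial and urothelial markers, the keratin genes KRT7, KRT8 and KRT18 were abundant (21.0 to 188 RPKM in the 4 libraries), while KRT5 and UPK3A had 0 counts in all 4 and KRT19, CDH1 and GATA3 stayed at or below 0.102 RPKM. The summed level of the 13 was 262 RPKM in EJ circ, 225 in EJ vector, 420 in T24T circ and 398 in T24T vector. Of 8 markers of other cell types, CD68 alone was above 0.10 RPKM, at 6.71 in EJ circ, 4.67 in EJ vector, 28.1 in T24T circ and 25.8 in T24T vector, and the leukocyte genes PTPRC and CD3E had 0 counts. The transfected circle has no value of its own, as the table holds 1 value per gene.

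Promoters of 5 of the factors are shown first, because TFAM, TFB1M and POLRMT carry the recognition sequence of NRF1, the transcription factor best known for driving nuclear genes of mitochondria, and because PNPT1 passed the test between transfections and SUPV3L1, like TFB1M, that between lines. Each runs 5′ to 3′ along its gene's strand, from 250 bases before the annotated gene start to 50 bases after it, as RefSeq gives it on GRCh38.p14. All 10 genes matched a window in that table. The RefSeq start can differ from that of the counted gene model, most in TFAM (58385410 against 58385022) and TEFM (30906238 against 30906820). Distances below are from the RefSeq start. Capitals mark the motifs named below.
POLRMT (chr19:633488-633787, minus strand): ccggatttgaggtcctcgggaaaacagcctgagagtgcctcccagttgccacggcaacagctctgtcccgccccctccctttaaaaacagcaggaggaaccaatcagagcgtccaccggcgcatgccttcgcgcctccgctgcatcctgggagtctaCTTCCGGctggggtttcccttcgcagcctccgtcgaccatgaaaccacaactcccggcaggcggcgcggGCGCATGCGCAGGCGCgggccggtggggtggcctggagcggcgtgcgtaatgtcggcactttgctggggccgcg
TFAM (chr10:58385160-58385459, plus strand): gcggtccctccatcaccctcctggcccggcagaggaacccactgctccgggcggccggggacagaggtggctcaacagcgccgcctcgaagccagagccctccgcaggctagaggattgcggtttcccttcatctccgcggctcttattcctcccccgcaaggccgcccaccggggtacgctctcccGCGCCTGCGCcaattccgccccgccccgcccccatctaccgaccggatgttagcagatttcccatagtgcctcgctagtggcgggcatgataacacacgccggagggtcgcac
TFB1M (chr6:155314435-155314734, minus strand): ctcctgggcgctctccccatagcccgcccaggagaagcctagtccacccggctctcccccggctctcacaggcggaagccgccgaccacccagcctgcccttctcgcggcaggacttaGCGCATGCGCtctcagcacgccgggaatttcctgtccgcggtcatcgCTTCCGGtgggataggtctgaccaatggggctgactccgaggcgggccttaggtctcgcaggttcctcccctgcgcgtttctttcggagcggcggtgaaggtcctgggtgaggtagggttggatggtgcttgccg
PNPT1 (chr2:55693795-55694094, minus strand): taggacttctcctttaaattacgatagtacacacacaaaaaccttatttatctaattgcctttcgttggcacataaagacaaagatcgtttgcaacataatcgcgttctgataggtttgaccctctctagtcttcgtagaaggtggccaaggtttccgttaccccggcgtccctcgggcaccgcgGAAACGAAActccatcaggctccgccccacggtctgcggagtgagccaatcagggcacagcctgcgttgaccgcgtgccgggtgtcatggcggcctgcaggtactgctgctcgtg
SUPV3L1 (chr10:69179984-69180283, plus strand): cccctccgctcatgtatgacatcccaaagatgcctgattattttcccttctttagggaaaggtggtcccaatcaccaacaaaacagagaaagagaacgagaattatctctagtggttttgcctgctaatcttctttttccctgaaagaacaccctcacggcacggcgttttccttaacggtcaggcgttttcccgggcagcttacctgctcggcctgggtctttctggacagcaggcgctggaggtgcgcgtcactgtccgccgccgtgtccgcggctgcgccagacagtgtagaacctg

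The NRF1 motif, searched as GCGCANGCGC on both strands, was found in 3 of the 10 factors, and in 5.78% of the 35116 promoter windows in the table. POLRMT held it in a pair of overlapping copies, GCGCATGCGC and GCGCAGGCGC, the first of them beginning 24 bases before the start. TFB1M held it at 132 bases and TFAM at 63 bases before the start. The ETS motif CCGGAAG, which GABP binds, was found in 4 of the factors, POLRMT, TFB1M, TEFM and SLIRP, and in 10.26% of windows. The YY1 motif AAGATGGCG was found in SLIRP, and in 1.75% of windows. PNPT1 is known as an interferon-induced gene, so the interferon-response element GAAANNGAAA was searched too. It was found in none of the factors and in 3.57% of windows. A closer spacing, GAAANGAAA, was added after the PNPT1 sequence had been read. It lies 65 bases before the PNPT1 start, occurs in LRPPRC as well, and is found in 3.12% of windows. No motif overlapped another in these windows except for the pair of NRF1 copies in POLRMT. These are exact matches of letters and not measured binding. Near matches were not counted, so a factor without a match here may still hold a similar sequence.

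Levels between genes were compared in RPKM, the reads per kilobase of merged exons, scaled to the counted reads of the library, that the authors deposited. SLIRP, a small RNA-binding protein, stood highest, with 63.1 RPKM in EJ circ, 57.1 in EJ vector, 66.4 in T24T circ and 55.0 in T24T vector. Its lowest library lay above the highest library of every other factor. POLRMT averaged 12.5 ± 0.73 RPKM and POLG 12.2 ± 0.78 over the 4 libraries (SD over the 4 groups of 1 library). Their ranges overlapped, and both lay above the remaining 7 factors. TFAM (8.68 ± 0.41 RPKM), LRPPRC (8.40 ± 0.90), TFB2M (7.81 ± 0.88), PNPT1 (6.40 ± 1.10), SUPV3L1 (6.17 ± 1.22) and TFB1M (4.78 ± 0.95) followed, each overlapping its neighbour in that order. TEFM, the elongation factor, was lowest at 2.51 ± 0.49 RPKM, with every library below every library of TFB1M.

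**Figure D1:**
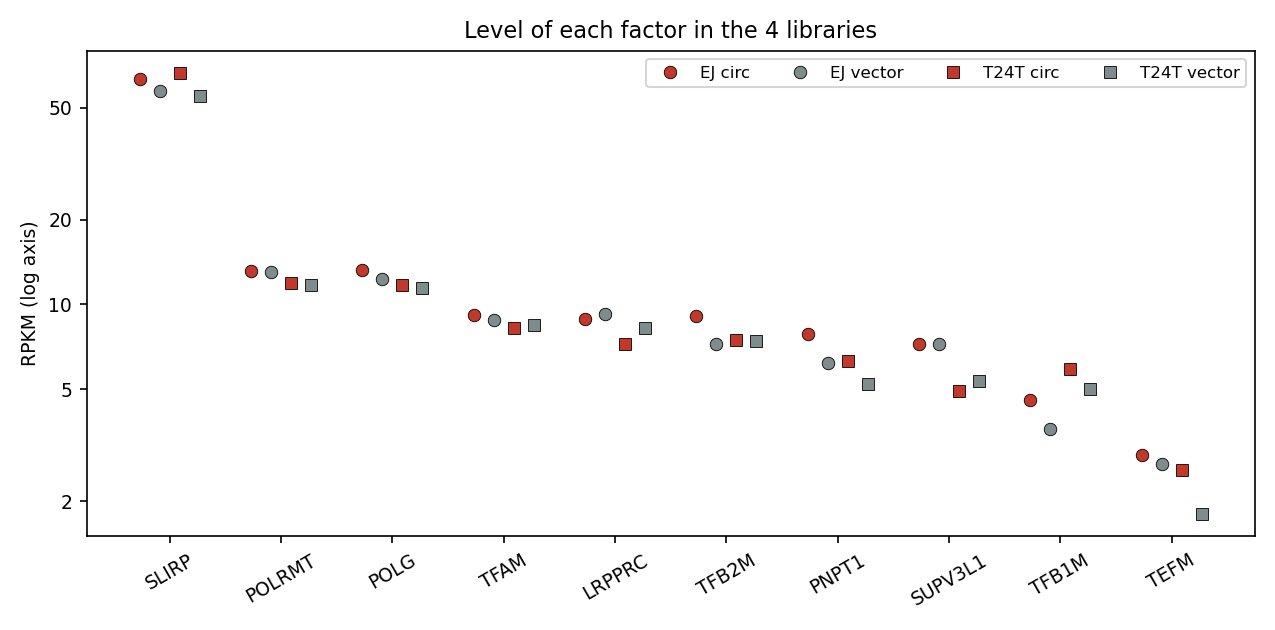
RPKM of each factor (log axis) in the 4 libraries, circ in red and vector in grey, EJ as circles and T24T as squares. SLIRP sits between 55.0 and 66.4 RPKM in all 4, and TEFM between 1.80 and 2.93.

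The order depends on the length used. Merged exons count every isoform, and for SLIRP they come to 2631 bases, against 408 for its GENCODE principal transcript. Per kilobase of the principal transcript, a length chosen after seeing the data, SLIRP averaged 390 RPKM. Only the length was changed here, and the counts stayed those of all merged exons. The value is thus not the level of that transcript alone. POLRMT stayed in the second place and POLG in the third, and TEFM stayed lowest. LRPPRC then ranked 4, SUPV3L1 5, TFB1M 6 and TFAM 7 of the 10.

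The study looked for genes that respond to the circle, which the comparison of circ with vector in both lines addresses. PNPT1, the mitochondrial exoribonuclease, rose, and it was the 1 factor of 10 to pass the test. Estimates were above 0 for 8 of the 10 factors, and their median log2 fold change was 0.14, against 0.0018 over all 17689 genes tested. Of all tested genes 7.13% were called higher and 5.56% lower, so 1 call among 10 is near that background. The test was edgeR's quasi-likelihood test with the cell line as a block and Benjamini-Hochberg adjustment over all tested genes, at an adjusted p under 0.05 (called). Its replicates are the lines, n = 2, and whether a library pools cultures is not given, so p-values measure the spread between these 4 libraries, borrowed mostly from other genes. In bulk RNA, fewer cells that express a gene and less of its RNA per cell cannot be told apart.

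Within a line there is no replicate, and folds are given with exact 95% binomial intervals that cover counting error only. No factor differed by 1.5-fold in either line. Among all tested genes, 7.24% passed that fold upward in EJ and 6.05% downward, and 7.76% passed it upward in T24T and 6.09% downward. The interval excluded 1 for 4 factors in EJ, TFB1M, TFB2M, SLIRP and PNPT1, and for 4 in T24T, TEFM, LRPPRC, SLIRP and PNPT1. Among all tested genes the interval excluded 1, in either direction, for 33% in EJ and 37.3% in T24T, so 4 of 10 is near the background in each line. In 5 factors, TFB2M, TEFM, POLG, SLIRP and PNPT1, both circ libraries lay above both vector libraries in scaled counts, as in 15.2% of all tested genes.

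**Figure D2:**
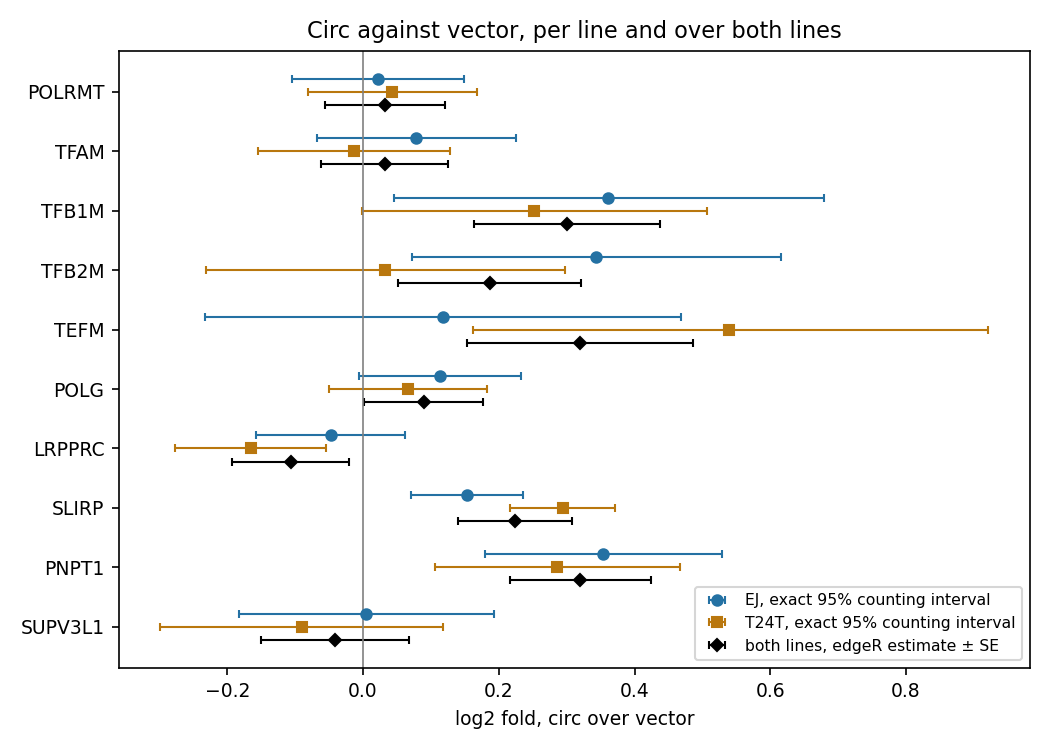
log2 fold of circ over vector for each factor in EJ (blue circles) and T24T (orange squares) with exact 95% counting intervals, and the edgeR estimate over both lines with its SE (black diamonds). PNPT1 and SLIRP are the 2 factors whose intervals lie above 0 in both lines.

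Among the factors that start and carry transcription, POLRMT (chromosome 19, 617224 to 633604, minus strand, hg38) had 992 counts in EJ circ and 1103 in T24T circ, against 1045 in EJ vector and 1016 in T24T vector. Its levels were 13.2 RPKM in EJ circ and 11.9 in T24T circ, against 13.0 in EJ vector and 11.8 in T24T vector, a difference smaller than that between the lines. The log2 fold change was 0.03 ± 0.09 (SE of the edgeR fit, as after each ±; 95% interval -0.15 to 0.21; edgeR adjusted p = 0.863).

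TFAM (chromosome 10, 58385022 to 58399221, plus strand, hg38), the packaging and promoter factor, had 759 counts in EJ circ and 837 in T24T circ, against 769 in EJ vector and 802 in T24T vector. In RPKM it stood at 9.21 in EJ circ and 8.27 in T24T circ, against 8.77 in EJ vector and 8.48 in T24T vector, so it was higher with circ in EJ and lower with circ in T24T. The log2 fold change was 0.03 ± 0.09 (95% interval -0.16 to 0.22; edgeR adjusted p = 0.877). For both POLRMT and TFAM the interval leaves out a change of 1.5-fold in either direction. So does that of every other factor except TEFM (95% interval -0.02 to 0.66), including PNPT1, which was called. The widths rest mostly on the spread of other genes.

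TFB2M (chromosome 1, 246540560 to 246566324, minus strand, hg38), the promoter-melting partner of TFAM, had 248 counts in EJ circ and 249 in T24T circ, against 209 in EJ vector and 231 in T24T vector. The EJ circ library, at 9.13 RPKM, stood above the other 3, which lay between 7.23 and 7.46. The fold was 1.27 in EJ (1.05 to 1.53) and 1.02 in T24T (0.852 to 1.23). Over both lines the log2 fold change was 0.19 ± 0.13 (95% interval -0.09 to 0.46; edgeR adjusted p = 0.412).

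TFB1M (chromosome 6, 155257509 to 155314493, minus strand, hg38), the rRNA methyltransferase, had 185 counts in EJ circ and 291 in T24T circ, against 154 in EJ vector and 232 in T24T vector. Both lines were higher with circ, by 1.28-fold in EJ (1.03 to 1.602) and 1.19-fold in T24T (0.999 to 1.42), but the groups overlapped, since T24T vector lay above EJ circ. The log2 fold change of 0.30 ± 0.14 did not pass (edgeR adjusted p = 0.156). TIAM2, on the opposite strand, shares 215 bases of exon with TFB1M, and its own log2 fold change was 0.31 ± 0.14 (edgeR adjusted p = 0.147). Whether counting used strand is not given in the sources used here, so reads of such overlapping genes cannot be told apart.

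TEFM (chromosome 17, 30897336 to 30906820, minus strand, hg38), the elongation factor, had the fewest counts, 139 in EJ circ and 150 in T24T circ, against 137 in EJ vector and 98 in T24T vector. The T24T vector library stood lowest, at 1.80 RPKM, and the others lay between 2.58 and 2.93. TEFM showed the widest gap between the lines of the 10 factors, 1.09-fold in EJ (0.851 to 1.38) and 1.45-fold in T24T (1.12 to 1.89). The ratio of the 2 folds was 1.34 with a counting interval of 0.932 to 1.92, which includes 1. Over both lines the log2 fold change was 0.32 ± 0.17 (edgeR adjusted p = 0.226). The antisense transcript RP13-753N3.3 overlaps 542 bases of its exons and ADAP2 301 bases, with log2 fold changes of 0.58 ± 0.32 and -0.26 ± 0.15, neither of which passed.

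POLG (chromosome 15, 89305198 to 89334861, minus strand, hg38), the replicative DNA polymerase, had 1161 counts in EJ circ and 1269 in T24T circ, against 1148 in EJ vector and 1151 in T24T vector. Its log2 fold change was 0.09 ± 0.09 (95% interval -0.09 to 0.27; edgeR adjusted p = 0.572). FANCI shares 458 bases of exon with POLG on the opposite strand and had 0.05 ± 0.08.

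LRPPRC and SLIRP bind each other, and the complex protects mitochondrial mRNAs. LRPPRC (chromosome 2, 43886508 to 43996005, minus strand, hg38) had 1279 counts in EJ circ and 1272 in T24T circ, against 1414 in EJ vector and 1354 in T24T vector. It was the factor with the lowest estimate, at 0.967-fold in EJ (0.896 to 1.04) and 0.892-fold in T24T (0.825 to 0.963). The log2 fold change of -0.11 ± 0.09 did not pass (95% interval -0.28 to 0.07; edgeR adjusted p = 0.476).

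SLIRP (chromosome 14, 77708071 to 77761104, plus strand, hg38) had 2442 counts in EJ circ and 3154 in T24T circ, against 2348 in EJ vector and 2442 in T24T vector. In scaled counts both circ libraries lay above both vector libraries, with folds of 1.11 in EJ (1.05 to 1.18) and 1.23 in T24T (1.16 to 1.29). The log2 fold change of 0.22 ± 0.08 came short of the threshold (edgeR adjusted p = 0.0768). The ratio of the T24T fold to the EJ fold was 1.10 (1.02 to 1.19 for counting error), the 1 such interval among the 10 factors to exclude 1. The share of all tested genes with such an interval was not counted, so this does not set SLIRP apart. SNW1, a splicing factor gene on the opposite strand that shares 118 bases of exon with SLIRP, rose by 0.43 ± 0.08 (edgeR adjusted p = 0.00063), and its part in the SLIRP value was not tested.

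PNPT1 degrades mitochondrial RNA, and its partner SUPV3L1 unwinds that RNA. PNPT1 (chromosome 2, 55634265 to 55693910, minus strand, hg38) had 595 counts in EJ circ and 582 in T24T circ, against 498 in EJ vector and 453 in T24T vector. In RPKM these were 7.88 in EJ circ and 6.28 in T24T circ, against 6.20 in EJ vector and 5.23 in T24T vector, so both circ libraries stood above both vector libraries. The fold was 1.28 in EJ (1.13 to 1.44) and 1.22 in T24T (1.08 to 1.38). PNPT1 rose by 0.32 ± 0.10 on the log2 scale (95% interval 0.11 to 0.53; edgeR adjusted p = 0.0373), and its log2 ratios in the lines differed by an SD of 0.05. The call rests on the model, since the adjusted p was 0.448 in DESeq2, 0.0691 in edgeR without a filter on low counts and 0.210 in limma on log2(RPKM + 1), with estimates between 0.26 and 0.31. Its pseudogene copies PNPT1P1 and PNPT1P2 held at most 1 count in any library.

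SUPV3L1 (chromosome 10, 69180232 to 69209099, plus strand, hg38) had 454 counts in EJ circ and 381 in T24T circ, against 484 in EJ vector and 385 in T24T vector. The fold was 1.003 in EJ (0.881 to 1.14) and 0.939 in T24T (0.813 to 1.09). The log2 fold change was -0.04 ± 0.11 (95% interval -0.26 to 0.18; edgeR adjusted p = 0.860).

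Partners can be compared without any scaling of the libraries, as the ratio of their RPKM values within each library, where the library total cancels. The change of that ratio from vector to circ was taken from the counts. These pairs were chosen after the values had been seen, so the ratios are a description. The ratio itself depends on the gene lengths used, while its change from vector to circ does not. By principal-transcript length, with the counts of all merged exons kept, SLIRP averaged 390 RPKM, against 12.9 for LRPPRC. SLIRP stood at 7.08 times the LRPPRC level in EJ circ, against 6.16 times in EJ vector, and at 9.20 times in T24T circ, against 6.69 times in T24T vector. The ratio was thus 1.15 times higher with circ in EJ (exact 95% counting interval 1.04 to 1.27) and 1.37 times higher in T24T (1.25 to 1.51).

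The PNPT1 level was 1.09 times that of SUPV3L1 in EJ circ, against 0.858 in EJ vector, and 1.27 in T24T circ, against 0.982 in T24T vector. It was higher with circ by 1.27 times in EJ (1.07 to 1.52) and 1.30 times in T24T (1.07 to 1.57). For the paralogs TFB1M and TFB2M the ratio was 0.504 in EJ circ, against 0.498 in EJ vector, and 0.789 in T24T circ, against 0.678 in T24T vector. Here both counting intervals of circ over vector included 1, and the 2 T24T libraries stood above the 2 EJ libraries. The TFAM to POLRMT ratio lay between 0.673 and 0.722 in all 4 libraries. The TEFM to POLRMT ratio was higher with circ by 1.07 times in EJ (0.824 to 1.39) and 1.41 times in T24T (1.07 to 1.86). By principal-transcript length, with the same counts, PNPT1 averaged 7.45 RPKM, against 10.6 for SUPV3L1, and TFB1M 9.18, against 7.81 for TFB2M. In both of these pairs the order of the mean levels thus turned with the length used.

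**Figure D3:**
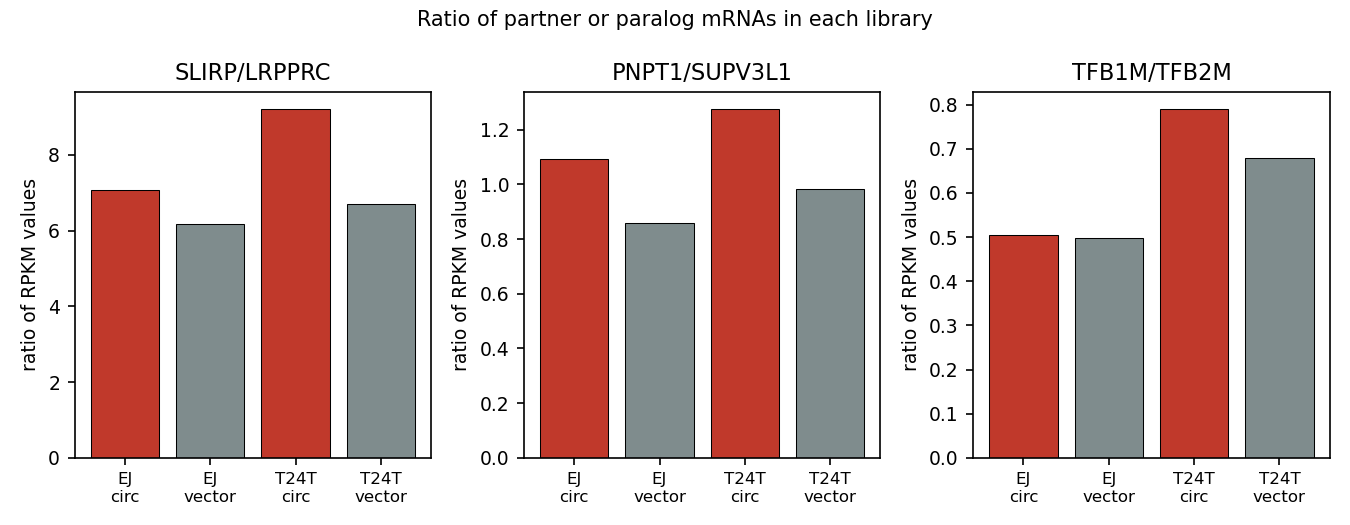
Ratio of the RPKM values of SLIRP to LRPPRC, PNPT1 to SUPV3L1 and TFB1M to TFB2M in each library, circ in red and vector in grey. In the first 2 panels each circ bar stands above the vector bar of its line, and in the last the T24T bars stand above the EJ bars.

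The mitochondrial mRNAs that these factors act on moved further. All 13 mitochondrially encoded mRNAs fell with circ, with log2 fold changes between -0.70 (MT-CO2) and -0.47 (MT-ND1) and a median of -0.60. MT-ND6, the mRNA encoded on the strand opposite to the other 12, had -0.59 ± 0.08. As the use of strand in counting is not given, reads from the other strand cannot be told apart in MT-ND6. The rRNAs MT-RNR1 and MT-RNR2 had -1.05 ± 0.09 and -0.18 ± 0.08, of which MT-RNR1 passed. MT-RNR1 stood at 85.6 RPKM in EJ circ and 75.1 in T24T circ, against 166 in EJ vector and 170 in T24T vector. MT-RNR2 stood far higher, at 3624 in EJ circ and 2069 in T24T circ, against 4467 in EJ vector and 2208 in T24T vector. The cause of that gap between the rRNAs was not tested. The part of the 10 factors in the fall of the mitochondrially encoded RNAs was not tested. Scaling without the mitochondrially encoded genes moved the estimates of the 10 factors by at most 0.0142 and left PNPT1 called (edgeR adjusted p = 0.0493).

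Other nuclear genes of mitochondrial gene expression were taken from 9 lists written down by role. Of their 95 tested members, 11 rose and 2 fell, with a median log2 fold change of 0.09, against 7.13% and 5.56% of all tested genes. The list of mitochondrial DNA replication and the nucleoid held 5 of the rises among 14 members, with a median of 0.25. These were the helicase gene TWNK, listed as C10orf2 in the table (0.30 ± 0.08), the RNA-DNA hybrid nuclease gene RNASEH1 (0.27 ± 0.08), the nucleoid-associated membrane ATPase genes ATAD3A (0.30 ± 0.08) and ATAD3B (0.33 ± 0.09), and the flap nuclease gene FEN1 (0.33 ± 0.09). ATAD3A and ATAD3B are near-identical copies, so reads may be split between them, and RNASEH1 and FEN1 also serve the nucleus. In TWNK the counts were 1960 in EJ circ and 2053 in T24T circ, against 1657 in EJ vector and 1637 in T24T vector. The primase-polymerase gene PRIMPOL had 0.33 ± 0.13 without passing.

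Of 12 genes of RNA processing, polyadenylation and decay, the oligoribonuclease gene REXO2 rose (0.28 ± 0.09), and PTCD2 (0.44 ± 0.15, edgeR adjusted p = 0.0541), the poly(A) polymerase gene MTPAP (0.40 ± 0.17) and ANGEL2 (0.36 ± 0.15) did not pass. REXO2, which finishes off the short products of decay, had 1164 counts in EJ circ and 1215 in T24T circ, against 1078 in EJ vector and 909 in T24T vector. Of 20 genes of mitochondrial RNA modification, the rRNA methyltransferase genes MRM2 (0.41 ± 0.10) and MRM1 (0.96 ± 0.31) rose and the pseudouridine synthase gene RPUSD4 fell (-0.33 ± 0.11). MRM1 rests on 35 counts in EJ circ and 52 in T24T circ, against 14 in EJ vector and 31 in T24T vector.

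Of 14 translation factors, the initiation factor gene MTIF2 rose (0.33 ± 0.09), and MTRF1 (-0.47 ± 0.24) and MTFMT (-0.28 ± 0.24) did not pass. Of 11 tested genes of nuclear control, the coactivator gene PPARGC1B (0.59 ± 0.18) and HCFC1 (0.31 ± 0.08) rose. ESRRA had 0.25 ± 0.11, and its partner PPARGC1A, with at most 1 count in any library, could not be tested. Of 10 nucleotide supply genes, the nucleoside diphosphate kinase gene NME4 fell (-0.36 ± 0.09), and TYMP (-0.33 ± 0.56) and RRM2B (0.27 ± 0.13) did not pass. Among 4 genes of the MTERF family 0 passed, with MTERF1 at 0.23 ± 0.19, MTERF3 at 0.22 ± 0.16 and MTERF2 at 0.16 ± 0.15. Among 6 FASTK family genes 0 passed, with FASTKD2 at 0.27 ± 0.15, FASTK at -0.22 ± 0.13 and TBRG4 at -0.20 ± 0.11. PNPT1 is known to keep double-stranded mitochondrial RNA from the sensors of the cytosol. Of 4 tested genes of such sensors and their adaptor MAVS, 0 passed, with EIF2AK2 at 0.22 ± 0.09, MAVS at -0.17 ± 0.09 and IFIH1 at 0.09 ± 0.16.

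**Figure D4:**
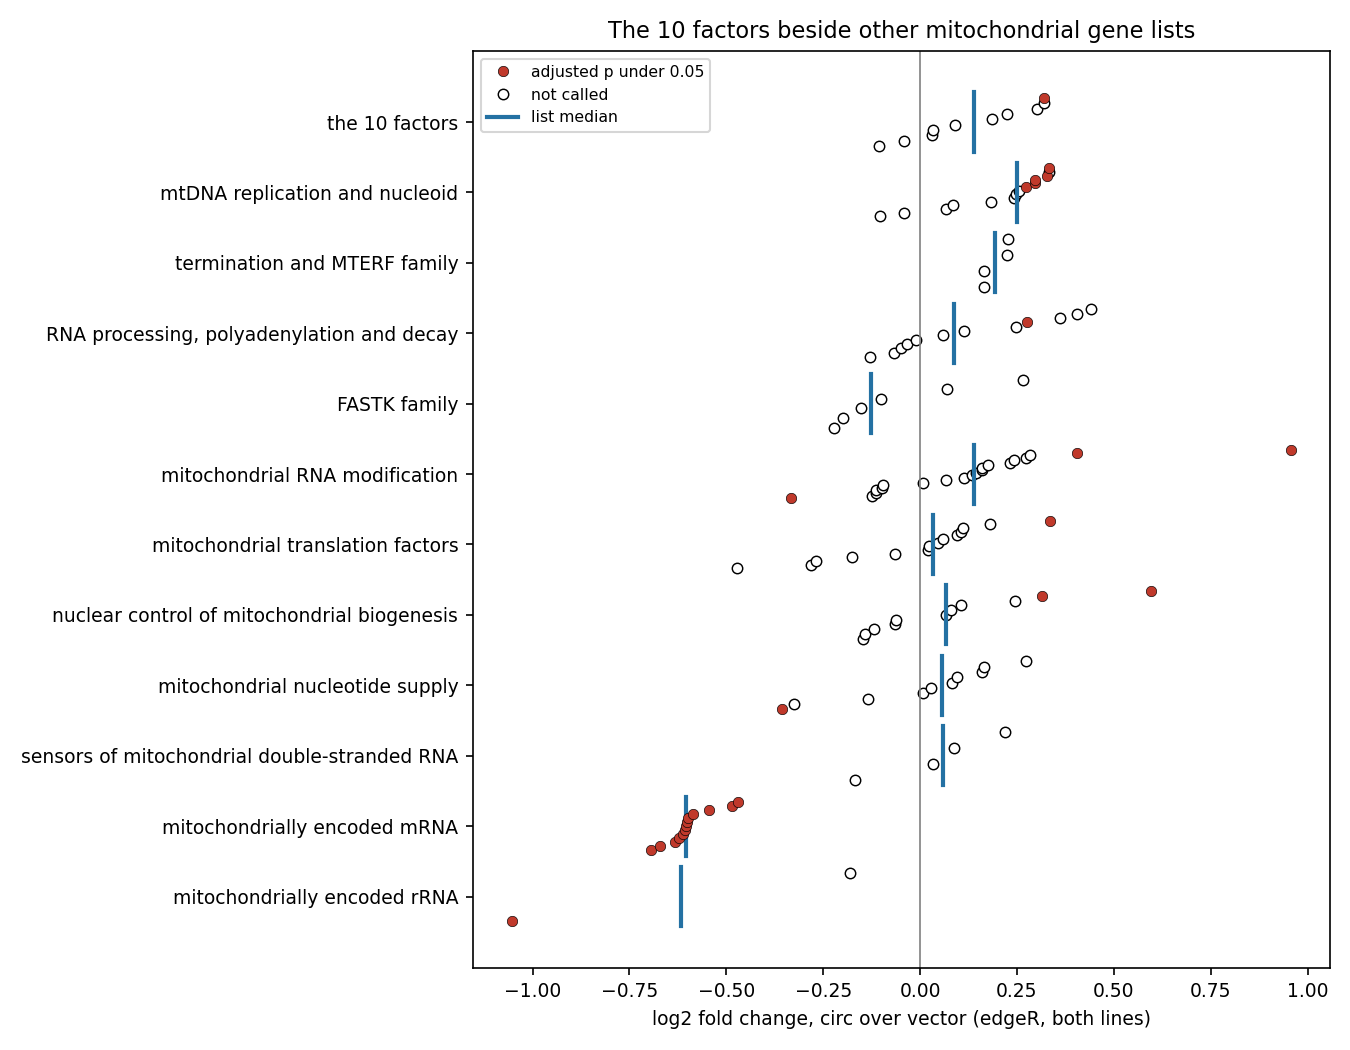
log2 fold change of circ over vector (edgeR, both lines) for each tested gene of the 10 factors, of the 9 nuclear lists and of the mitochondrially encoded RNAs, red where the adjusted p was under 0.05, with the list median as a blue bar. The 13 mitochondrial mRNAs lie between -0.70 and -0.47, and the 10 factors between -0.11 and 0.32.

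The same fit set T24T against EJ, with transfection as the block. SUPV3L1 was lower in T24T and TFB1M higher, the 2 of 10 factors that passed, while 41.4% of all tested genes were called in this comparison, 21.9% higher in T24T and 19.5% lower. TFB1M stood at 5.89 RPKM in T24T circ and 5.03 in T24T vector, against 4.60 in EJ circ and 3.60 in EJ vector. Both T24T libraries thus lay above both EJ libraries, with a log2 fold change of 0.48 ± 0.14 (edgeR adjusted p = 0.00512). SUPV3L1 stood at 4.93 RPKM in T24T circ and 5.33 in T24T vector, against 7.21 in EJ circ and 7.23 in EJ vector. Here the T24T libraries lay below the EJ libraries, with -0.43 ± 0.11 (edgeR adjusted p = 0.00186). In DESeq2 the calls were lost, at an adjusted p of 0.235 for TFB1M and 0.110 for SUPV3L1.

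The other 8 factors did not pass. PNPT1 was lower in T24T in both transfections, with -0.22 ± 0.10 (edgeR adjusted p = 0.0823), and LRPPRC likewise, with -0.17 ± 0.09 (edgeR adjusted p = 0.109). With library size alone as the scaling both passed, at edgeR adjusted p = 0.0247 for PNPT1 and 0.0260 for LRPPRC. TEFM had -0.31 ± 0.17, with a log2 ratio of T24T over EJ of -0.11 in the circ libraries and -0.53 in the vector libraries. POLRMT, POLG, TFAM and TFB2M lay between -0.08 and -0.04, and SLIRP at 0.07 ± 0.08. The direction of TFB2M differed between transfections, with a log2 ratio of T24T over EJ of -0.22 in the circ libraries and 0.09 in the vector libraries. That of TFAM was -0.08 in the circ libraries and 0.0079 in the vector libraries. FANCI, which overlaps POLG, was lower in T24T (-0.29 ± 0.08), as was ADAP2, which overlaps TEFM (-0.68 ± 0.15).

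**Figure D5:**
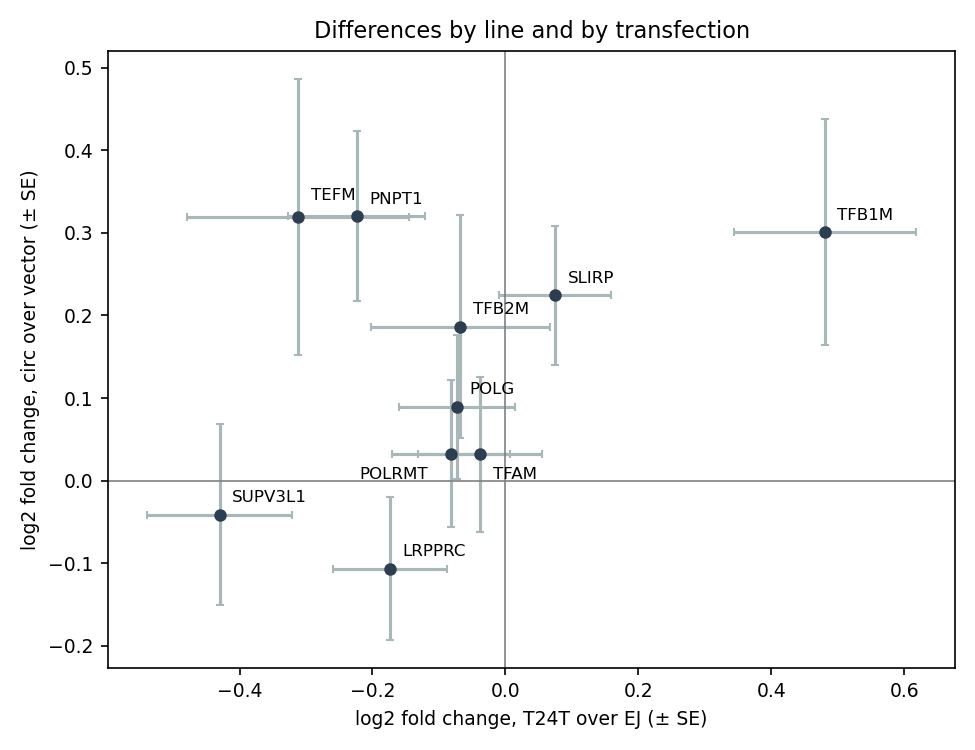
log2 fold change of each factor by line (T24T over EJ, horizontal) and by transfection (circ over vector, vertical), each with its SE from the edgeR fit. TFB1M stands to the right at 0.48 and SUPV3L1 to the left at -0.43, and PNPT1 and TEFM stand highest at 0.32.

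The genes whose pattern over the 4 libraries lay closest to a factor were sought for POLRMT, TFAM and LRPPRC, as the Euclidean distance of centred log2 scaled counts among 10742 genes with 50 or more counts in every library. SMARCD2, SEPT8 and NR2C2 were nearest to POLRMT, at distances of 0.017, 0.019 and 0.022. BUD13, FLOT2 and EFTUD2 were nearest to TFAM, at 0.0090, 0.020 and 0.022. THAP4, NPAT and MAP3K7 were nearest to LRPPRC, at 0.018, 0.019 and 0.024. POLRMT and TFAM hardly varied over the libraries on this scale, and 4 libraries give little to tell patterns apart.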

How the data were processed

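RNA was extracted as total RNA with TRIzol and sequenced on Illumina libraries, per the labels' protocols. The submitters' processing notes list Trimmomatic, HISAT2 and build hg38 and give no versions. How reads were counted, the annotation and the use of strand are not given in the sources used here. The authors' deposited values are raw read counts per gene and, in a second table, RPKM, which equalled count over length and total in 100% of values (relative tolerance 1e-06). Columns were matched to samples by description, and T24 in the columns is T24T in the titles.

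Counts with 10 or more in 1 library and 20 or more in all were scaled by TMM (17689 genes) and fitted in edgeR 4.0.16 with terms for line and transfection, 1 residual and 30.49 prior degrees of freedom. Libraries of the same line form a pair by design. Within-line log2 ratios use a prior count of 2. The fit was tested on simulated data with changes larger than those of the 10 factors, so this does not bear on the PNPT1 call. Gene coordinates equal those of GENCODE release 29, and TWNK and PRORP were matched through synonyms. Promoters come from RefSeq.

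The members and lists were chosen with earlier results of these data known. Named were the 10 members, list genes that passed and the 3 largest changes per list. Alternatives were RLE, library size alone, TMM without mitochondrial genes, other filters and prior counts, DESeq2 1.42.0, limma 3.58.1 (voom, and log2(RPKM + 1) or log2(RPKM + 0.1)), and no block. Intervals of folds within a line, and of ratios of folds or of partners, cover counting error only. Those given with edgeR estimates come from the fit and its SE.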

Additional observations from a re-analysis of the deposited data

Results flagged for a closer look

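In 2 factors the lines moved in opposite directions, which was not tested, as each line has 1 pair of libraries. The share of all tested genes with opposite directions was not counted, so this does not set these factors apart. TFAM had a log2 ratio of circ over vector of -0.01 in T24T and 0.08 in EJ, a difference of -0.0915. SUPV3L1 had -0.09 in T24T and 0.0047 in EJ, a difference of -0.0945. All 4 counting intervals include a fold of 1.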

How the results depend on the processing

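For circ against vector, 2246 genes and 1 factor, PNPT1, were called. DESeq2 called 334 genes and 0 factors (TEFM and TFB1M had no adjusted p there). With no block for the line, 0 genes and 0 factors were called by edgeR (unadjusted, 397 genes were under 0.05). limma called 0 genes and 0 factors on log2(RPKM + 1) (3548 unadjusted) and on log2(RPKM + 0.1) (2933 unadjusted). Without a filter 0 factors were called. PNPT1 passed in 5 of 10 alternatives (adjusted p 0.0299 to 1). In the main edgeR fit 3 factors had an unadjusted p under 0.05. Of all tested genes 12.7% passed there even after adjustment, and their unadjusted share was not counted. For T24T against EJ, 7315 genes and 2 factors were called. No block gave 3192 genes and 0 factors, DESeq2 3217 and 0, limma on log2(RPKM + 1) 4784 genes and on log2(RPKM + 0.1) 3051 and 0, and library size alone 4 factors. TFB1M and SUPV3L1 each passed in 7 of 10 alternatives. The count of factors with opposite directions in the lines was 2, and 1 with RLE, library size alone or TMM without mitochondrial genes. The causes were not tested. No factor passed 1.5-fold in a line under any scaling or prior count tried. The length of the principal transcript left 3 pairs of neighbours apart, as before. Estimates near 0 changed sign in places. SUPV3L1 in EJ, at 0.0047, was -0.0089 with RLE, -0.0033 with library size alone, -0.011 with TMM without mitochondrial genes and -0.0029 on log2(RPKM + 1). Circ over vector, TFAM (0.03) was -0.01 without EJ and SUPV3L1 (-0.04) was 0.0047 without T24T. T24T over EJ, TFAM (-0.04) was 0.0079 and TFB2M (-0.07) 0.09 in the vector libraries alone. With 98 counts at the lowest, TEFM has the widest counting intervals.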
